A study of Mus musculus with 2 samples.

Results

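The genes described here are 49 mouse genes that encode the DNA replication machinery, chosen by symbol from a fixed list of known subunits and regulators. No measured value entered that rule, although the genes and lists were chosen with earlier results of these data known. They were found among the 43346 Ensembl genes of 2 libraries from embryonic liver, and all 49 were matched by identifier. By role they fall into 10 groups, from the proteins that mark origins to those that assemble chromatin behind the fork. Both libraries came from livers of mouse embryos of strain B6NCrl at embryonic day 11.5, with no genetic change or treatment named, and they form 1 group of 2 biological replicates. The tissue of each was pooled from male and female embryos, 109 of them by the label of replicate 1. Total RNA above a size limit, with spike-in RNAs added, entered a SmartSeq library in an amount of 1 cell-equivalent, taken from RNA of the whole organ. SmartSeq primes cDNA at the poly(A) tail and amplifies it by PCR.

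Before S phase, the origin recognition complex, Cdc6 and Cdt1 load the MCM helicase as an inactive double ring, which is called licensing, and geminin blocks Cdt1 afterwards so that no origin is loaded again in the same cycle. At S phase the Dbf4-dependent kinase Cdc7 and cyclin-dependent kinases bring in Cdc45 and the GINS complex to make the active helicase, behind which RPA coats single strands, DNA polymerase alpha with primase starts each strand, and the clamp PCNA, placed by replication factor C, tethers polymerases delta and epsilon. The liver of the midgestation embryo is a site of blood formation in which erythroid precursors and hepatoblasts divide, and many replication genes are known targets of E2F transcription factors.

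Promoters are printed for the 4 genes with the highest mean TPM among the 16 that carry the sequence feature compared across the list. These 4 do not stand for the rest in level: the 16 had a median mean level of 51.1 TPM, against 88.7 TPM for the 24 searched genes without the feature. Each runs from 250 bases before to 50 bases from the annotated start, from RefSeq on GRCm38.p6, which has the same chromosome coordinates as mm10, and is written 5′ to 3′ on the strand of the gene. Capitals mark matches to an E2F-type motif of 8 bases, searched on both strands as TTTCCCGC, TTTCGCGC, TTTGCCGC and TTTGGCGC, and overlapping matches run together. Mcm7 lies at chr5:138171834-138172133 on the minus strand, Mcm6 at chr1:128359656-128359955 on the minus strand, Lig1 at chr7:13278576-13278875 on the plus strand and Rfc3 at chr5:151651159-151651458 on the minus strand.
Mcm7: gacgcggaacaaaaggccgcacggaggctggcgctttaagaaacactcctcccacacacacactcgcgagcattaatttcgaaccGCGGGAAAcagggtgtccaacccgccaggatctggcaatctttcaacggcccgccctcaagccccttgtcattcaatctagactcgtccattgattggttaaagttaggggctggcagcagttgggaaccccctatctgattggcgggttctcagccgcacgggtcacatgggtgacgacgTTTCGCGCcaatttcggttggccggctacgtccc
Mcm6: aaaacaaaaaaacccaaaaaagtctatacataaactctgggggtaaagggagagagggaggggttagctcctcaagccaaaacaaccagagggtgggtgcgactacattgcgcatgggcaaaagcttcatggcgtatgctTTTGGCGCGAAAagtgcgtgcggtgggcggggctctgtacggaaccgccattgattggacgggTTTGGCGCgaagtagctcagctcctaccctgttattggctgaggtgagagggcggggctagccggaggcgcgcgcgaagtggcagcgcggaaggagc
Lig1: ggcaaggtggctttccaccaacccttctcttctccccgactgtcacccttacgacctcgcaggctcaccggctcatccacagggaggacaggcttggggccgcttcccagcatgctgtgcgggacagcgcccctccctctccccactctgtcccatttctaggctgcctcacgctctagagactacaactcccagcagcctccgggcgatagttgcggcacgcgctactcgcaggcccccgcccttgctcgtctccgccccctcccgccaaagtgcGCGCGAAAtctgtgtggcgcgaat
Rfc3: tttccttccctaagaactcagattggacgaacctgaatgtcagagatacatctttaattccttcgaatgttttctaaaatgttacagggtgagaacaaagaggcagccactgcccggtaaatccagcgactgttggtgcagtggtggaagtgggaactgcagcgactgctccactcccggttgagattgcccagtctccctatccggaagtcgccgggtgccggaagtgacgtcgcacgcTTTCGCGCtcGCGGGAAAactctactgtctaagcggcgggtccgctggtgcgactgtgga

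The motif was found in 16 of the 40 genes with an entry in the promoter table (40.0%), against 2.6% of all 27025 genes in it. Among the 5212 table genes averaging 10 TPM or more, a level more like that of the replication genes, the share was 5.72%. Without the first T, the motif of 7 bases occurred in 27 of the 40 (67.5%), in 10.9% of all genes and in 21.7% of those averaging 10 TPM or more. CCAAT was found in 57.5% of the replication genes, against 41.1% and 44.0% in the same backgrounds. TTTGAA, the core of a cell cycle element used in mitotic genes, was found in 17.5%, which lies between the 20.2% of all genes and the 14.9% of those averaging 10 TPM or more. In Mcm6 a pair of overlapping matches began 110 and 106 bases before the start and another 47 bases before it. In Rfc3 the matches began 10 bases before the start and at the start itself, and in Mcm7 they began 165 bases before and 16 bases after it. Lig1, the ligase that seals Okazaki fragments, had 1 match, beginning 26 bases after the start in the window printed. Of the 22 matches in all, 15 began between 100 bases before and 49 bases after a start, and 5 of them in the last 100 bases before it. That interval covers a large part of the window, and no such count over all promoters is given here. Pcna had no match to either form in its window, which says only that these letters are not there. A match is a description of sequence, and binding was not measured.

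**Figure D1:**
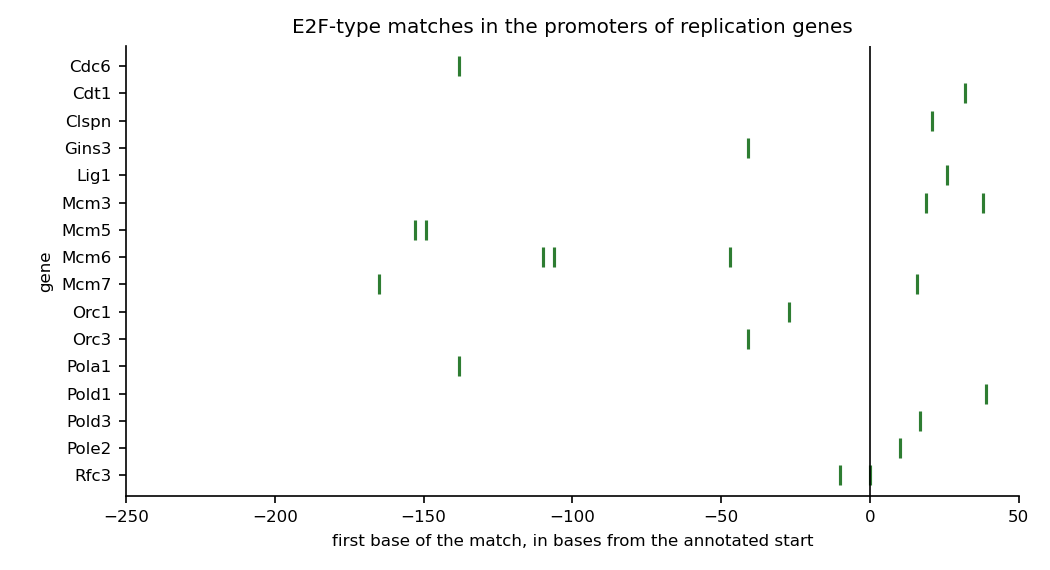
Distance in bases from the annotated start (x axis) to the first base of each of the 22 E2F-type matches (ticks) in the 16 replication genes that had 1 (y axis). Mcm3, Mcm5, Mcm6, Mcm7 and Rfc3 had at least 2 matches in a window. Between 100 bases before and 49 bases after the start, a large part of the window searched, 15 of the 22 began.

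Levels are given in TPM, a relative abundance that is scaled for transcript length and can be compared between genes. The libraries held 33289699 and 32607453 estimated reads, of which the replication genes took 0.794% and 0.753%. Hepatoblast markers reached 1 TPM in both libraries for 9 of 10 genes, with Afp at 4870 and 4016 TPM, and erythroid markers for 10 of 10. Hnf4a, a hepatocyte transcription factor, had 1860 reads in replicate 1 and 0 in replicate 2. Markers of heart and muscle summed to 50.2 TPM in replicate 1, where Myl7, Myl2 and Tnni3 had no reads, and to 268 TPM in replicate 2. Of these 6 markers 5 were past 2-fold toward replicate 2, against 25.2% of all genes averaging 10 TPM or more, while Actc1 stood at 43.5 and 30.3 TPM. All 6 averaged between 10 and 50 TPM, where 64.9% of genes were past 2-fold in either direction. Mesenchymal markers summed to 166 and 424 TPM with none at 0, and macrophage markers to 273 and 106 TPM with Csf1r at 0 reads in replicate 2 and Adgre1 in the opposite direction, at 2.83 and 7.92 TPM. Endothelial markers summed to 65.8 and 61.2 TPM, and megakaryocyte markers to 959 and 1193 TPM. The libraries therefore differ in their non-hepatic markers in the same comparison as every difference between libraries given below, and the part of these markers in those differences was not tested. In RNA from a whole organ, fewer cells of a type and less RNA per cell cannot be told apart. No test between groups was possible with 1 group, so differences are described by size and no p-value is given.

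Replication genes were well represented in both livers. With 1 TPM as the limit of detection, 45 of the 49 were found in replicate 1, 47 in replicate 2 and 43 (87.8%) in both. The share in both was 27.3% of all 21474 protein-coding genes, and 60.1% of the 10783 genes of any type found in at least 1 library. The median of the 49 mean levels was 88.6 TPM, against 20.0 TPM for the 9193 protein-coding genes averaging 1 TPM or more, and 32 of the 49 lay above the upper quartile of those genes at 55.5 TPM. Together the 49 genes made up 0.490% of all TPM in replicate 1 and 0.482% in replicate 2, a mean of 0.486% ± 0.00558 (SD, n = 2).

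Single genes differed far more between the libraries than this sum. A difference between libraries was taken as the log2 ratio of TPM + 1, replicate 2 over replicate 1, centred on the median gene among those averaging 10 TPM or more, a scale on which differences of low genes are understated. Of the 48 replication genes at that level, 23 (47.9%) differed by 2-fold or more, against 51.1% of 6801 genes. In the direction of replicate 2 this held for 10 of them (20.8%), against 25.2% of all genes, and in the direction of replicate 1 for 13 (27.1%), against 25.8%. These shares are near those of genes at large. With the ratio centred on 38 spike-in RNAs (median log2 ratio 0.42) in place of the median gene (0.03), 8 were higher in replicate 2 and 20 in replicate 1. The share of calls higher in replicate 2 was then 28.6% in place of 43.5% for the replication genes, and 37.6% in place of 49.4% for all genes.

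The share past 2-fold was also taken by level. Between 10 and 50 TPM, 12 of 15 replication genes (80.0%) were past 2-fold, against 64.9% of all genes at that level. Of the 15, 9 were under 10 TPM in a library and all 9 were among the 12, since a gene high in only 1 library has a low mean and must differ. Between 50 and 100 TPM it was 4 of 12 (33.3%), against 43.5%. At 100 TPM or more it was 7 of 21 (33.3%), against 18.7%. These level ranges were chosen after the values were seen. Of the 23 differences, 17 were also past 2-fold in the same direction on CPM (reads scaled to a fixed total, with no length correction), on posterior mean TPM and on TPM of protein-coding transcripts alone, 9 toward replicate 1 and 8 toward replicate 2. The other 6 were Mcm5, Orc4, Orc6, Rfc4, Pola1 and Rpa1. Of these, Mcm5, Orc6, Rfc4 and Rpa1 averaged 100 TPM or more, so most of the 7 calls at that level depended on the scale. The 18.7% of all genes is for the deposited TPM only. Conversely, Mcm3 was past 2-fold on CPM, and Mcm3, Gins2, Rfc3 and Timeless on TPM of protein-coding transcripts, but not on the deposited gene TPM. The deposited credibility intervals of a gene, which cover the assignment and counting of reads in a single library, lay apart between libraries for 43 of the 48 (89.6%), against 91.3% of all genes. They overlapped for Pcna, Rfc3, Pola2, Pold3 and Lig1.

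**Figure D2:**
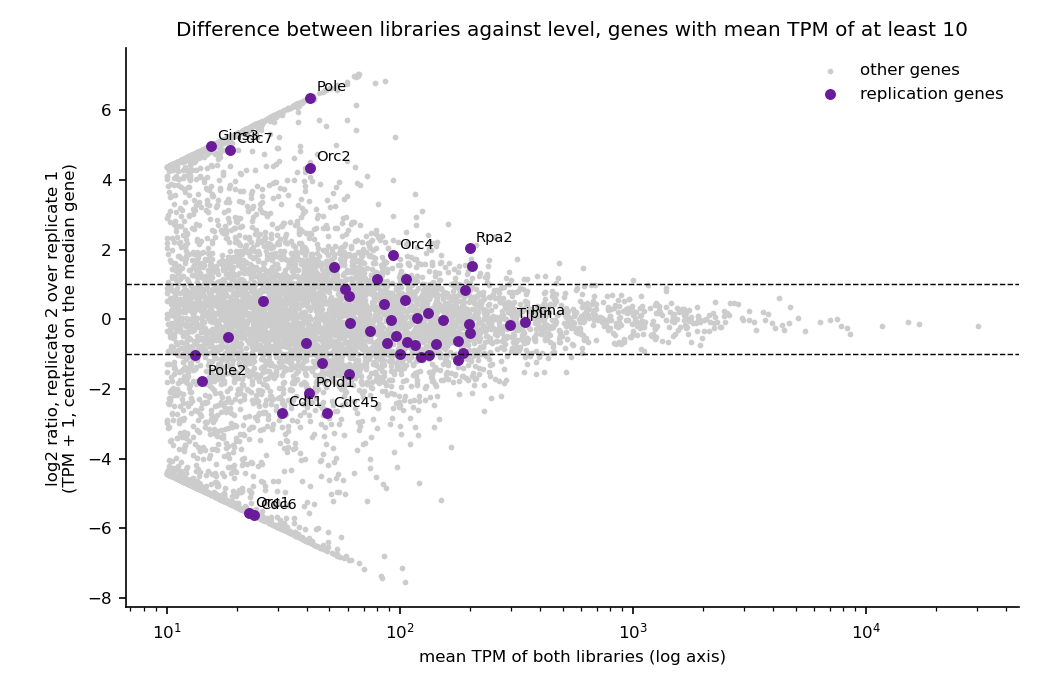
Log2 ratio of replicate 2 over replicate 1 (y axis, TPM + 1, centred on the median gene) against mean TPM (x axis, log scale) for genes averaging 10 TPM or more, with 48 replication genes in purple and other genes in grey. Dashed lines mark 2-fold, and 23 of the 48 lie on or past them, among which Pole, Gins3, Cdc7, Orc1 and Cdc6 lie at the edges of the cloud where a library holds few or no reads.

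The origin recognition complex, with 6 genes here, binds origins and recruits the loading factors. On the deposited gene TPM its sum was almost the same in both libraries, at 378 and 376 TPM. Over protein-coding transcripts alone Orc4 stood at 9.56 and 10.6 TPM, so this near equality depends on the estimate. The levels of single subunits were not the same. Orc6 was the highest on average, with 178 and 88.1 TPM in replicates 1 and 2 (133 ± 63.9, SD, n = 2). Orc4 followed with 39.4 and 147 TPM, Orc5 with 91.1 and 30.5 TPM, and Orc3 with 20.7 and 30.9 TPM. Thus 2 of these subunits were higher in each library.

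Orc2 and Orc1 showed the widest gaps in the complex. Orc2 stood at 2.87 TPM from 279 reads in replicate 1 and at 79.7 TPM from 6536 reads in replicate 2, a centred log2 ratio of 4.36. Orc1, at chr4:108579423-108614833 in mm10, stood at 45.1 TPM from 2596 reads in replicate 1 and had no reads in replicate 2. Its share of reads in replicate 1 was at least 838-fold higher than the 3 reads per library that a count of 0 allows. Such limits, and the 95% intervals below, cover read counting only, and PCR copies are not independent molecules.

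The regulators of licensing differed in opposite directions. Cdt1, which brings the MCM helicase to origins, stood at 54.5 TPM in replicate 1 and 7.82 TPM in replicate 2. Gmnn, which encodes geminin, stood at 103 and 305 TPM. Its level was therefore 1.90 times that of Cdt1 in replicate 1 and 39.0 times in replicate 2, on the TPM scale, a pair set side by side after the values were seen. Cdc6, the ATPase that loads the helicase together with the origin recognition complex, stood at 47.5 TPM from 3898 reads in replicate 1 and had 1 read in replicate 2. That read gives a ratio of read shares of 3773 with an exact 95% interval of 677 to 149057. Cdt1 and Cdc6 were high in replicate 1 and Gmnn in replicate 2.

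All 6 subunits of the MCM helicase, the ring that unwinds DNA at the fork, were above 60 TPM in both libraries. The sum was 1026 TPM in replicate 1 and 769 TPM in replicate 2. Mcm7 was the highest on average, with 226 and 174 TPM (199.6 ± 36.9, SD, n = 2), and Mcm5 the lowest, with 134 and 67.4 TPM (100.5 ± 46.7). The values of these subunits did not overlap between the genes, and the highest mean was 1.99 times the lowest. The named subunits depend on the estimate: Mcm3 had the lowest mean on CPM, on protein-coding transcripts and at a fixed transcript length, where the highest was Mcm2, Mcm6 and Mcm2 in turn. Mcm6 stood at 206 and 190 TPM, Mcm2 at 247 and 127 TPM, Mcm3 at 131 and 85.1 TPM and Mcm4 at 83.7 and 127 TPM. Within a single library the highest subunit was 2.95 times the lowest in replicate 1, Mcm2 over Mcm4, and 2.81 times in replicate 2, Mcm6 over Mcm5. The order of the subunits differed between libraries. Mcm4 was the only subunit with the higher TPM in replicate 2. On this scale Mcm5 alone was past 2-fold, narrowly, and Mcm2 lay just inside at -0.98. On protein-coding transcripts Mcm3 was past 2-fold, at -1.24, and Mcm5 was not.

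Of the 8 genes that activate the helicase, summing to 470 and 471 TPM, 6 were detected in both libraries. Gins2 and Gins4, subunits of the GINS complex that joins Cdc45 and MCM in the active helicase, stood at 122 and 142 TPM and at 168 and 80.0 TPM. Gins1 stood at 26.4 and 78.5 TPM. Gins3, at chr8:95633453-95645060 in mm10, had no reads in replicate 1 and 2103 reads in replicate 2, or 30.9 TPM, a share of reads at least 724-fold higher. Gins4 was thus the highest subunit in replicate 1 and Gins2 in replicate 2. Over protein-coding transcripts alone Gins2 stood at 14.7 and 34.3 TPM, and the order was Gins4, Gins1, Gins2 and Gins3 in both libraries.

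Cdc45, the third part of the active helicase, stood at 85.0 and 12.5 TPM, a log2 ratio of -2.70. The kinase subunit Cdc7 stood at 0.28 TPM from 22 reads in the first library and at 37.1 TPM from 3354 reads in the second, a ratio of read shares of 158 with an exact 95% interval of 104 to 252. Dbf4, its activating subunit, stood at 21.6 and 15.3 TPM. The kinase subunits thus had opposite directions, of which that of Dbf4 was under 2-fold. Mcm10, which is needed for the helicase to start unwinding, stood at 46.1 and 75.2 TPM.

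The clamp and its loader had the largest sum of the groups on average, 1008 ± 4.76 TPM (SD, n = 2), although the MCM helicase had the larger sum in replicate 1. Pcna was the highest of all 49 genes, with 349 and 339 TPM from 13538 and 14071 reads (344 ± 7.09), and its values overlapped those of no other gene of the list. Of the subunits of replication factor C, which opens the clamp around DNA, Rfc2 stood at 134 and 246 TPM, Rfc4 at 246 and 112 TPM and Rfc3 at 117 and 122 TPM. Rfc1, the large subunit that is particular to the replicative loader, stood at 111 and 81.6 TPM, and Rfc5 at 48.0 and 111 TPM. Only Rfc4 and Rfc5 of this group were past 2-fold, in opposite directions, at -1.16 and 1.17.

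**Figure D3:**
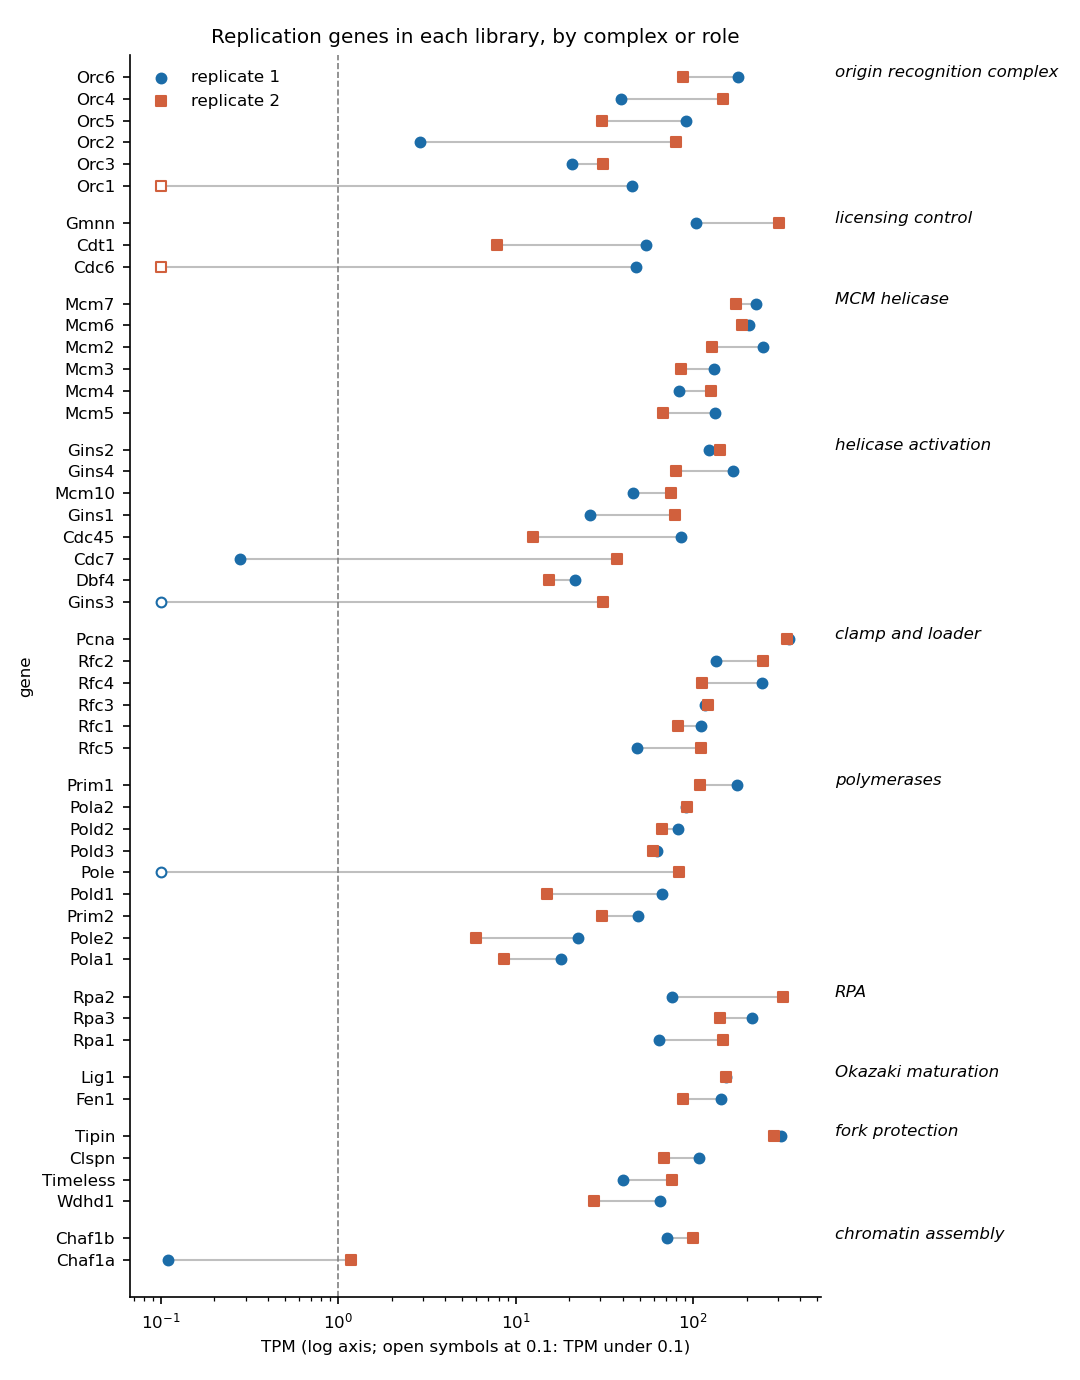
TPM of each of the 49 genes (x axis, log scale) in replicate 1 (blue circles) and replicate 2 (orange squares), ordered within each complex or role by mean. Open symbols stand at 0.1 for values under 0.1 TPM (Orc1 and Cdc6 in replicate 2, Gins3 and Pole in replicate 1), and the dashed line marks 1 TPM; Pcna, Tipin, Pola2, Lig1 and Rfc3 have nearly coincident symbols.

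DNA polymerase alpha with primase, the enzyme that lays the RNA-DNA primers, kept the same order of subunits in both libraries. Prim1, the catalytic primase subunit, stood at 178 and 110 TPM, Pola2 at 91.5 and 92.7 TPM, Prim2 at 48.6 and 30.5 TPM and Pola1, the polymerase subunit, at 18.01 and 8.57 TPM. The values of neighbours in this order did not overlap. Prim1 was 3.65 and 3.60 times Prim2 in the separate libraries, another pair set side by side after the values were seen. Pola1 has the longest leading transcript of the list, 5346 bases. Over the 49 genes, effective length in replicate 1 and mean TPM had a Spearman's rho of -0.43, a description across genes that share the same libraries. TPM is itself scaled by effective length, so these measures are not independent.

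For polymerase delta, which copies the lagging strand, Pold2 and Pold3 stood at 82.5 and 66.8 TPM and at 62.8 and 59.6 TPM. Its catalytic subunit Pold1 stood at 66.8 TPM in replicate 1 and at 15.0 TPM in replicate 2, a log2 ratio of -2.11. For polymerase epsilon, which copies the leading strand, the catalytic subunit Pole, at chr5:110286306-110337474 in mm10, had 1 read in replicate 1 and stood at 82.8 TPM from 5631 reads in replicate 2. The ratio of read shares was 5818, with an exact 95% interval of 1044 to 229831. Its partner Pole2 had the opposite direction, with 22.3 and 5.95 TPM and a log2 ratio of -1.77.

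RPA, the trimer that coats single-stranded DNA, summed to 355 TPM in replicate 1 and 613 TPM in replicate 2. Rpa2 stood at 75.8 and 323 TPM, Rpa1 at 64.4 and 148 TPM and Rpa3 at 215 and 143 TPM. The first 2 were past 2-fold toward replicate 2, and Rpa3 was lower there by less than 2-fold. Of the enzymes that finish Okazaki fragments, Lig1 stood at 153 TPM in both libraries (153 ± 0.0778, SD, n = 2) and Fen1, the flap endonuclease, at 144 and 88.0 TPM. Lig1 had the smallest gap of the list on the TPM scale, although its reads were 7834 and 5377, a log2 ratio of -0.49 in CPM.

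Of the proteins that travel with and protect the fork, Tipin stood at 312 and 285 TPM, the second highest mean of the list after Pcna. Timeless, with which Tipin forms a dimer, stood at 40.3 and 76.1 TPM, so that Tipin was 7.75 and 3.75 times as high, a pair also chosen after the values were seen. Clspn, the checkpoint mediator claspin, stood at 108 and 68.9 TPM, and Wdhd1, which links polymerase alpha to the helicase, at 65.2 and 27.5 TPM. Only Wdhd1 was past 2-fold among these on gene TPM, and on protein-coding transcripts Timeless was too, at 29.0 and 72.7 TPM.

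Chromatin assembly factor 1 places new histones behind the fork, and its large subunits were very unequal. Chaf1b stood at 71.7 and 99.2 TPM. Chaf1a, at chr17:56040439-56072289 in mm10, stood at 0.11 TPM from 10.1 estimated reads and at 1.18 TPM from 111 estimated reads, the lowest mean of the list. Chaf1a overlaps Ubxn6, a gene on the opposite strand with 71.9 and 1681 reads. Whether the counting used strand is not given in the sources used here, so reads of such a pair cannot be told apart with certainty. In all, 23 of the 49 overlap another annotated gene, and for 15 of them that gene reached 1 TPM in some library. Examples are Orc6 with Vps35, at 15369 and 2659 reads, Rfc4 with Eif4a2, at 3729 and 7928 reads, and Fen1 with Tmem258, at 5193 and 5039 reads. Gins2 and Cdt1 each overlap Gm20388, a read-through gene model, with 2619 and 2432 reads.

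**Figure D4:**
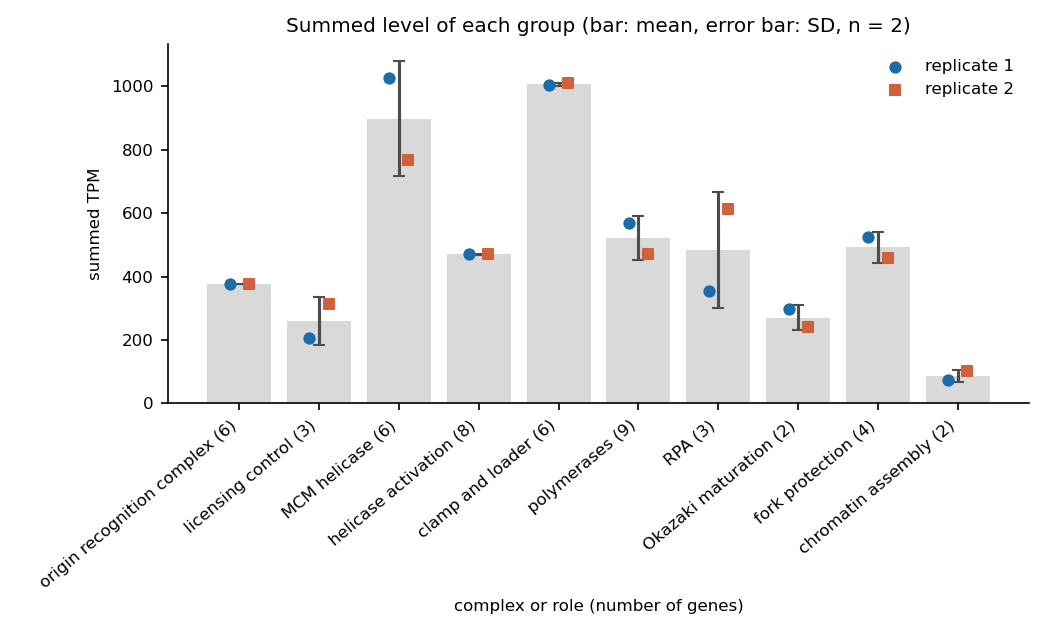
Summed TPM (y axis, from 0) of each complex or role (x axis, with its number of genes) in replicate 1 (blue circles) and replicate 2 (orange squares), with bars for the mean and error bars for the SD (n = 2). On the deposited gene TPM shown, the origin recognition complex, helicase activation and the clamp and loader have nearly equal sums. RPA stands at 355 and 613 TPM and the MCM helicase at 1026 and 769 TPM.

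The transcript that held most of a gene's TPM was mostly the same in both libraries. Among the 37 replication genes with more than 1 annotated transcript, an average of 10 TPM or more and reads in both libraries, it was the same for 33 (89.2%), against 62.5% of 4445 genes. It differed for Orc3, Cdc7, Rpa1 and Fen1. These shares were not matched for level. At 10 TPM or more the median mean level was 90.4 TPM for the replication genes, against 35.5 TPM for all genes. Cdc6 and Cdc7 were compared on 1 and 22 reads in their lower library.

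For some of these genes, much of the TPM was assigned to transcripts that do not encode the full protein. Among genes at 10 TPM or more in a library, protein-coding transcripts held under 50% of the TPM for 2 of 43 replication genes in replicate 1, against 12.8% of protein-coding genes, and for 4 of 42 in replicate 2, against 13.5%. This measure, its limit of 50% and its restriction to transcripts of known type were set after the values were seen. In Gins2 the coding transcript held 12.0% and 24.2% of TPM, and a retained-intron transcript of 511 bases led with 95.2 and 107 TPM from 1160 and 1293 of the gene's 2948 and 5178 reads. In Orc4 the coding share was 24.3% and 7.17%, and a processed transcript of 1477 bases led in both libraries. In Rfc3 it was 93.1% and 38.6%, and in Rpa1 81.3% and 46.2%, where a retained-intron transcript of 716 bases led in replicate 2. Counted over coding transcripts alone, Orc4 stood at 9.56 and 10.6 TPM, and its difference between libraries fell from 1.85 to 0.13 in log2. That of Rfc3 went from 0.04 to -1.20. For both genes the difference between libraries therefore depended on which transcripts were counted.

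**Figure D5:**
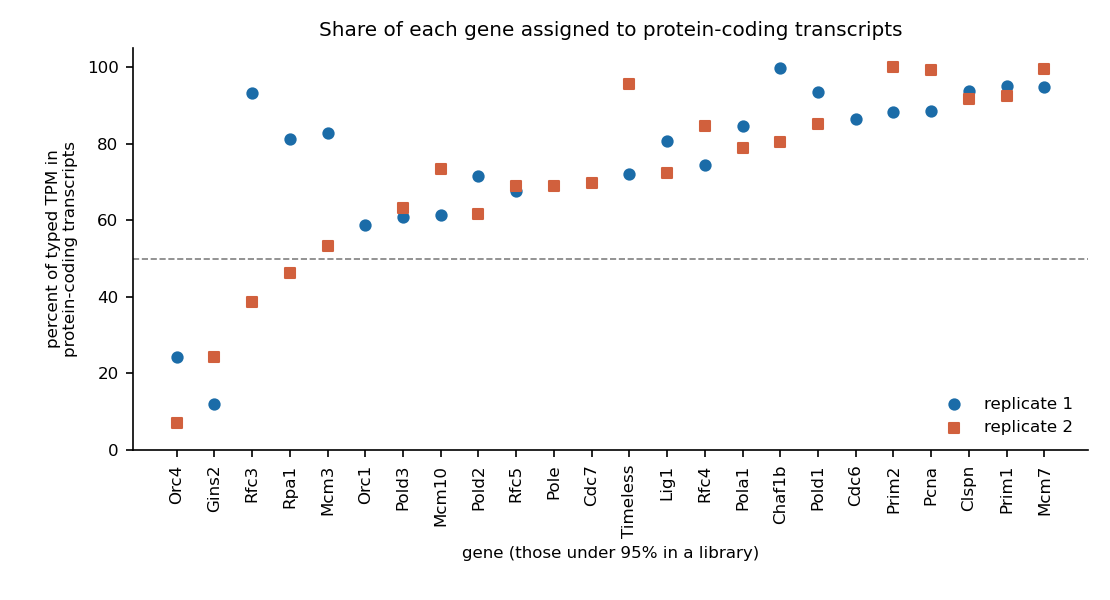
Percent of typed TPM in protein-coding transcripts (y axis) in replicate 1 (blue circles) and replicate 2 (orange squares) for the replication genes (x axis) under 95% in a library. A library is shown where the gene had a TPM of at least 1 and its percent could be assessed. Orc4 and Gins2 lie under the dashed line at 50% in both libraries, and Rfc3 and Rpa1 in replicate 2 only.

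Short coding transcripts led in 3 other genes. In Clspn a transcript of 608 bases, against 5027 for the longest coding transcript, held 91.2% and 89.8% of TPM from 1486 and 926 of 2439 and 1552 reads. In Lig1 the leading transcript had 944 of 3174 bases and held 39.3% and 59.8% of TPM. In Timeless it had 1746 of 4457 bases and held 50.4% and 76.5%. The annotation marks all 3 as incomplete at the 3′ end, and they end 33617, 19916 and 6832 bases before the 3′ end of their genes. With every gene set to the length of its longest coding transcript, Clspn stood at 23.2 and 15.3 TPM, Lig1 at 118 and 83.9 TPM and Timeless at 27.7 and 38.3 TPM, so the equal levels of Lig1 in both libraries hold for the deposited TPM and not for reads at a fixed length. For Rfc1, 6 of the 7 transcripts in the tables had no type in the annotation used, and the leading one had 485 bases, against 4694 for the coding transcript. Its fixed-length values were 41.1 and 42.3 TPM. Those of Gins2 were 36.2 and 65.7 TPM, of Orc4 15.5 and 67.1 TPM, of Rpa1 44.5 and 70.0 TPM, and of Pole 38.9 TPM in replicate 2. These 5 genes and the 3 above were the 8 of the list whose mean moved by over 1.5 times at a fixed length, and all 8 were lower. That direction was largely set by the method, since a longer length lowers a gene and rescaling raises the others less. Mcm2, with 1 annotated transcript, went from 247 and 127 TPM to 339 and 179 TPM, so the 2 scales are not equal.

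The other genes of the pathway are given by lists, whose counts past 2-fold are to be read against the 25.2% of all genes toward replicate 2 and 25.8% toward replicate 1. Of 11 genes of nucleotide supply, 10 were detected in both libraries, led by Rrm2, the small subunit of ribonucleotide reductase, at 296 and 324 TPM, then by Tyms and Dut. None of the 10 averaging 10 TPM or more was past 2-fold toward replicate 2 and 2 were past it toward replicate 1. Of 14 genes of S phase entry, 11 were found in both, led by E2f4, Ccna2 and Ccne2, with 2 of 10 past 2-fold in each direction. Of 23 other replisome and origin genes, 18 were found in both, led by Top2a, Rnaseh2a and Pole4, with 6 of 19 past 2-fold toward replicate 2 and 3 toward replicate 1. Pold4, the smallest subunit of polymerase delta, had no reads in replicate 1 and 80.1 TPM in replicate 2.

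Of 7 genes that degrade licensing factors or hold back their degradation, all 7 were found in both, with 4 of 7 past 2-fold toward replicate 1 and 1 toward replicate 2. Ddb1, an adaptor of the ubiquitin ligase that removes Cdt1, led at 121 and 49.6 TPM, followed by Cul4a and Skp2. Of 10 genes of chromatin behind the fork, 9 were found in both, led by Rbbp7, Rbbp4 and Ssrp1, with 1 of 9 past 2-fold toward replicate 2 and 2 toward replicate 1. Rbbp4, the small subunit of chromatin assembly factor 1, stood at 165 and 262 TPM. Of 8 genes of the S phase checkpoint, 4 were found in both, led by Chek1, Rad1 and Rad9a, with 1 of 4 past 2-fold in each direction. Of 13 genes of mitosis, listed as a contrast, all 13 were found in both, with a median mean level of 143 TPM, led by Cdk1, Birc5 and Cenpa, and 2 of 13 were past 2-fold in each direction. No difference of these counts from the shares over all genes was tested.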

How the data were processed

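RNA of E11.5 mouse liver was measured in 2 libraries. Per the file headers, the deposited tables hold, per gene and per transcript, an expected count (estimated reads, not always whole), TPM, posterior mean TPM with credibility bounds whose level is not given, effective length and the percent of a gene's TPM in each transcript, as the authors computed them. The genome is mm10 with GENCODE M4, per the labels. The sources used here give no aligner, quantification program or use of strand. Gene names, types and coordinates came from GENCODE M21 by identifier. Promoter sequences are from RefSeq (GRCm38.p6), and 40 of the 49 genes matched.

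Detection meant a TPM of at least 1. Ratios used TPM + 1, were centred on the median of genes averaging 10 TPM or more, and were called at 2-fold with no test, since there is 1 group. Ratios of read shares use CPM over Ensembl genes. Fractional counts occurred in 11 and 9 of the replication genes. All 49 genes are named, with both libraries' values, and for other pathway lists the 3 highest by mean TPM. Genes singled out after their values were seen are Pold4, Rbbp4, E2f1, E2f2, E2f3, E2f7, E2f8, the cell type markers and the overlapping genes. The genes and lists were chosen with earlier results of these data known. Alternatives changed the abundance estimate, denominator, detection limit, pseudocount, centring, level filter, fold, replicate or motif; the counts over protein-coding transcripts and at a fixed length were added after seeing the data. The ratio and its 2-fold call were tested on simulated counts with known ratios, and the other counts were not tested so. The simulated noise was that of read counting only, which does not cover the spread between these libraries. Python 3.11.15 with pandas 2.3.3, numpy 2.4.6, scipy 1.17.1 and matplotlib 3.10.9 was used. Protein sequences were not used here.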

Additional observations from a re-analysis of the deposited data

How the results depend on the processing

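No paired analysis was possible because there is 1 group. The 43 genes found in both libraries became 39 to 45 at other detection limits and 42 on protein-coding transcripts. The share of TPM held by all 49 genes, 0.486%, was 0.480% on posterior mean TPM and 0.522% over Ensembl genes only. It was 0.572% on protein-coding transcripts, 0.545% at a fixed transcript length and 0.806% on CPM over Ensembl genes. Each of these last settings changes both the estimate and the denominator, so a higher share there does not mean higher levels of these genes. The median level in log2, 6.49, was 6.47 on posterior mean TPM and also with a pseudocount of 0.1, 7.002 on CPM, 5.79 on protein-coding transcripts, 6.12 at a fixed length and 6.37 to 6.38 without 1 replicate. The 23 genes past 2-fold were 20 to 28 under other estimates and centrings, 19 with a mean TPM filter of 1, whose centre also shifts, 9 with a filter of 50 and 12 at 3-fold. The median absolute log2 ratio, 0.93, was 0.92 on posterior mean TPM and on CPM, 0.94 with a pseudocount of 0.1, 1.09 centred on spike-ins, 0.91 and 0.68 with filters of 1 and 50, and 0.98 on protein-coding transcripts. The MCM ratio, 1.99, was 2.51 on CPM, 2.57 on protein-coding transcripts, 2.25 at a fixed length and 2.81 to 2.95 without 1 replicate. The 16 genes with an E2F-type match were 27 with 7 bases and 13 with 2 forms only. The filters of 50 TPM and 3-fold count fewer genes by construction, and other causes were not tested. With 2 libraries the SD of a level rests on 1 difference.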

Other observations

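The E2F-type match and the direction of the difference between libraries were set side by side after both were seen. Of the replication genes with a promoter entry, 7 of the 12 past 2-fold toward replicate 1 held a match. They were Mcm5, Orc1, Cdc6, Cdt1, Pola1, Pold1 and Pole2, of which Mcm5 and Pola1 were not past 2-fold on every scale used. A match was also held by 1 of the 7 past 2-fold toward replicate 2 (Gins3) and by 8 of the 20 under 2-fold. Over all 5212 genes in the promoter table averaging 10 TPM or more, the shares were 5.02% toward replicate 1, 4.9% toward replicate 2 and 6.52% under 2-fold. Some E2F genes were uneven: E2f1 had 1155 reads in replicate 1 and 0 in replicate 2, E2f2 had 0 and 2719, and E2f7 had 1103 and 1. They averaged 7.42, 9.975 and 7.445 TPM, under the 10 TPM used for calls. Of all genes found at 1 TPM in at least 1 library, 60.1% were found in both, so such gaps are common. Others differed by less than 2-fold: E2f3 had 703 and 431 reads and E2f8 had 2476 and 1663. E2f4, the highest of them, stood at 213 and 158 TPM. No relation between these values was tested.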
